A study of Mus musculus with 6 samples.

Results

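Ddt, Gstt3, Gstt1, Gstt2, Mif, Derl3 and Smarcb1 are neighbouring genes on mouse chromosome 10. They are described here in germinal center (GC) B-cells, across B-cell states and across Smc3 genotypes. The 7 genes were taken by symbol from the 31053 features of the deposited matrices. They had been proposed with results of the same libraries in view, which may include differences between the genotypes, so their genotype values are given as a description with no test.

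The data are single cell transcriptomes of splenic cells sorted as GC B-cells in 6 libraries, from mice immunised with sheep red blood cells 8 days earlier. The labels assign 3 libraries to Smc3 wt/wt and 3 to Smc3 wt/-. The study deleted Smc3 with the Cγ1-Cre allele, which is driven from Ighg1 and is active in B-cells that enter the GC. Its single cell methods do not say whether the Smc3 wt/wt mice of these libraries carried it. In Smc3 wt/- mice 1 allele of Smc3, a core subunit of the cohesin ring that folds chromosomes into loops, lacks exon 4 in the cells that expressed Cre, and other cell types are not targeted. The age of the mice was not given in the sources used here. The methods of the study name as many Smc3 wt/- mice as there are Smc3 wt/- libraries and more Smc3 wt/wt mice than Smc3 wt/wt libraries, and do not tie mice to libraries, so p-values measure the spread between libraries.

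As background, Mif encodes macrophage migration inhibitory factor, a cytokine that signals through CD74 with CD44 or CXCR4, and Ddt encodes D-dopachrome tautomerase, its close relative and a second ligand of CD74. Gstt1, Gstt2 and Gstt3 encode theta class glutathione S-transferases, enzymes that couple glutathione to reactive compounds. Derl3 encodes Derlin-3, a membrane protein of the endoplasmic reticulum (ER) that takes part in ER-associated degradation (ERAD), the disposal of misfolded proteins that antibody-secreting cells rely on. Smarcb1 encodes a core subunit of the SWI/SNF chromatin remodelling complexes. In the GC, centroblasts (CB) divide, centrocytes (CC) test their receptors and receive T cell help, and positively selected cells turn on Myc and recycle. Other cells exit as memory B-cells or as plasmablasts (PB), which mature into plasma cells (PC).

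The 7 genes lie within 150388 bp of the GRCm38 reference, from position 75771230 to position 75921617 of chromosome 10 (GENCODE M21). Ddt (ENSMUSG00000001666, chr10:75771230-75773414), Gstt3 (ENSMUSG00000001665, chr10:75774115-75781414), Gstt1 (ENSMUSG00000001663, chr10:75783813-75798584) and Gstt2 (ENSMUSG00000033318, chr10:75831114-75837424) are all on the minus strand. Mif (ENSMUSG00000033307, chr10:75859353-75860240) and Smarcb1 (ENSMUSG00000000902, chr10:75896769-75921617) are on the minus strand as well. Derl3 (ENSMUSG00000009092, chr10:75893413-75895941) is the only one of the 7 on the plus strand, and its 3′ end is 827 bp from that of Smarcb1. Ddt and Gstt3 are 700 bp apart, and the other gaps are between 827 and 33172 bp.

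**Figure D1:**
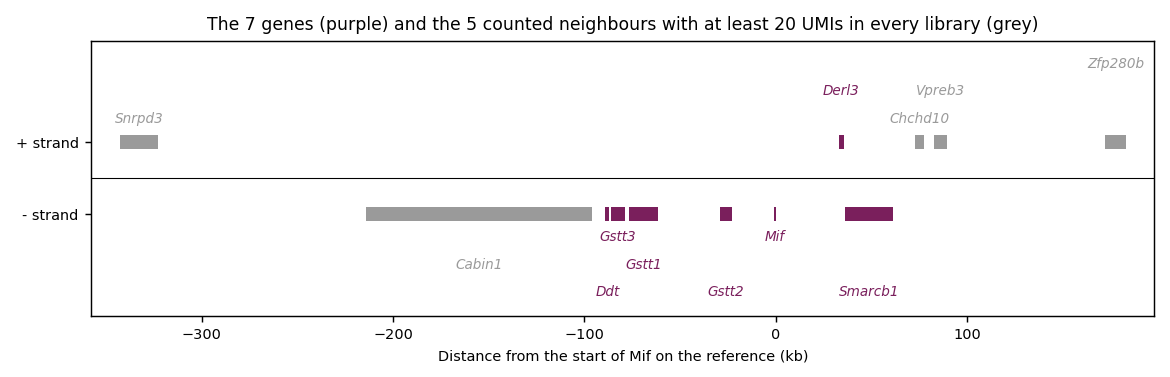
Map of the 7 genes (purple) and of the 5 neighbours within 250 kb that had at least 20 UMIs in every library (grey), by strand, with the distance from the start of Mif on the reference in kb on the x axis. Derl3 stands alone on the plus strand among the 7 genes.

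The sequences upstream of these genes differed in the short motifs that are known to be bound by factors of the ER stress response. RefSeq promoters (GRCm38.p6) were found for 6 of the 7 genes, and the 250 bases before each start were searched on both strands. The ER stress response element, written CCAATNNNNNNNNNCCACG, occurred in 37 of 32851 promoters (0.113%), and that of Derl3 was among them, on the minus strand from 156 to 138 bases before the start, with the letters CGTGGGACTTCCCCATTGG when read on the plus strand. Its ends are themselves matches to CCAAT (in 33.8% of promoters) and CCACG (28.3%). The promoters of Ddt, Derl3 and Smarcb1 held ACGTG (16.6% of promoters), and in Ddt and Derl3 it lies in CACGTG, which matches on both strands and in Derl3 also overlaps a CCACG. Mif held none of the 6 motifs searched, which also included TGACNNNGC (10.2% of promoters) and TATAAA (12.4%). A match is a description of the letters and not a bound site. The promoters of Derl3 (chr10:75893148-75893397, plus strand), Ddt (chr10:75773375-75773624, minus strand) and Mif (chr10:75860278-75860527, minus strand) are shown 5′ to 3′ because Derl3, Ddt and Mif are the genes the comparisons below turn on most. Capitals mark matches to the first 3 of the short motifs named above, on either strand.
Derl3: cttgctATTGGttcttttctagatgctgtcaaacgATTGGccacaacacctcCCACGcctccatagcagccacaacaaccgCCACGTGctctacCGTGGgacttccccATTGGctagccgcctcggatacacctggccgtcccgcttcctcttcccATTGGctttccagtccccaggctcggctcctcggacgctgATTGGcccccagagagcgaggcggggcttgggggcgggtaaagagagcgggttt
Ddt: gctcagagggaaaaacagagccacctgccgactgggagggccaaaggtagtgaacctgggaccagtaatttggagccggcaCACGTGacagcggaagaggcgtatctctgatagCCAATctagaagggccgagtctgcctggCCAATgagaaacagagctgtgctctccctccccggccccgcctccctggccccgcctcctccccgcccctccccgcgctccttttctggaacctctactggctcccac
Mif: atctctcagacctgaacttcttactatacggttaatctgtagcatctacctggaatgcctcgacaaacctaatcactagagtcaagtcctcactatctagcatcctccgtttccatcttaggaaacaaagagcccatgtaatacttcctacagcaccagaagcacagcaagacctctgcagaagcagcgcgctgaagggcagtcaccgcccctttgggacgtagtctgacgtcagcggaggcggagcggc

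The 6 matrices held 22939 barcodes and 156055938 unique molecular identifiers (UMIs), between 5223325 and 35354257 per library, and 20847 cells were kept. Library pairs shared 4 to 37 barcodes. Clusters of cells were named from marker transcripts, with "-like" added because they rest on transcripts alone, and the 7 genes and their neighbours were left out of the clustering. Myc was among the 10 genes of highest fold in the CC-like cluster, beside Cd83 and Nfkbia, and not among those of the recycling-like cluster. CC-like cells are therefore not a class without Myc. Smc3 wt/- replicate 2 stood apart: immunoglobulin transcripts made up 51.9% of its UMIs and 2.37% to 3.90% in the others. This library held 1424 PC-like cells, against 12 to 24 in each of the others, 321 PB-like cells, against 21 to 66, and only 162 CB-like cells. Although the material was sorted as GC B-cells, 48.9% of its kept cells were plasma-lineage and 15.4% myeloid-like. Its sort and its label could not be checked from these data, and every genotype value that includes it depends on them. Values are given with and without it where they rest on it. Smc3 wt/wt replicates 1 and 2 and Smc3 wt/- replicate 2 were male by their transcripts and the others female. Each library also held T cell-like cells (55 to 143), Smc3 wt/- replicate 2 held 550 myeloid-like cells, and a cluster of 3408 cells led by haemoglobin genes stayed unnamed. Counts of the 3′ end do not see the deleted exon of Smc3 and so do not check the genotype labels. In CB-like cells Smc3 had 132.8, 162.1 and 147.7 normalised CPM (UMI counts over a library size scaled by TMM) in the Smc3 wt/wt libraries and 137.1, 111.5 and 174.0 in the Smc3 wt/- libraries, and the groups overlapped.

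UMIs were summed over the cells of a class in each library, and a level is given in normalised CPM, that is, as a share of a library size that the TMM method had scaled for composition. Each class was compared with the CB-like cells of the same libraries by edgeR's quasi-likelihood test with Benjamini-Hochberg adjustment over all genes tested, with a call at an adjusted p under 0.05. The 5 comparisons share the CB-like sums. Plasma-lineage denotes PB-like and PC-like cells together.

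The low-count filter asks for a minimum CPM in at least 6 of the 12 sums of a comparison, so a gene that reached it mainly in the class where it was high had to differ. A change is therefore counted only where the gene reached that CPM in all 6 sums of the class where it was lower. This leaves out Gstt1 throughout and Gstt3 outside recycling-like cells, whose values are given without a test. Of the 7 genes, 5 were then higher and none lower than in CB-like cells in recycling-like cells, and 4 were higher and none lower in CC-like cells. Plasma-lineage cells had 4 higher and 1 lower, or 2 higher and 1 lower without a scaling factor for library composition. In S-phase GC B-like cells none were higher and 5 lower, but without integration of the libraries, or at a clustering resolution of 1, 1 was higher and 2 lower, and with no library block none were higher and 1 lower. In naive or memory B-like cells 1 was higher and 3 were lower. These counts stand against large backgrounds, which are over all genes that passed the filter. The share of all tested genes called was 67.9% in recycling-like (34.1% higher, 33.8% lower), 49% in CC-like (21.8% higher, 27.3% lower) and 52.3% in plasma-lineage cells (23.7% higher, 28.7% lower). It was 45.2% in S-phase GC B-like (23.6% higher, 21.6% lower) and 59.3% in naive or memory B-like cells (26% higher, 33.2% lower).

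Among the 6 classes compared, with PC-like cells counted within the plasma lineage, Ddt, the MIF relative, had its lowest mean in S-phase GC B-like cells, and its mean rose through CC-like and recycling-like to plasma-lineage cells. The last step did not hold in Smc3 wt/- replicate 2, where Ddt had 315 normalised CPM in recycling-like cells against 209 in PB-like and 90.9 in PC-like cells. PC-like cells were summed only in that library and, from few UMIs, in Smc3 wt/wt replicate 3. In each, the PC-like level of Ddt was below the CB-like level of the same library. There the higher plasma-lineage levels of Ddt were those of PB-like cells. Its levels in CB-like cells ran from 80.8 to 128 normalised CPM over the 6 libraries, with a median of 104. In recycling-like cells they ran from 192 to 396, with a median of 283, so that no library of the latter class reached down to the former. In PB-like cells they ran from 209 to 766, with a median of 432. Within single libraries Ddt was higher than in CB-like cells in 6 of 6 libraries in recycling-like and in plasma-lineage cells, and in 5 of 6 in CC-like cells.

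Set against CB-like cells, Ddt had a log2 fold change of 1.51 in recycling-like cells (SE 0.05, adjusted p = 5.17e-23) and 0.59 in CC-like cells (SE 0.09, adjusted p = 3.78e-06). In plasma-lineage cells it was 1.87 (SE 0.29, adjusted p = 0.00038), and 2.17 without Smc3 wt/- replicate 2. In naive or memory B-like cells, with a range of 77.6 to 137, the difference of -0.08 (SE 0.11, adjusted p = 0.561) did not pass the test, and its 95% interval ran from -0.31 to 0.16. Ddt fell by 0.51 on the log2 scale in S-phase GC B-like cells (SE 0.05, adjusted p = 4.48e-14), in 6 of 6 libraries. That last call depended on how the cells were clustered, since the value was -0.06 without integration of the libraries and -0.02 at a clustering resolution of 1, neither of which passed. It was also lost with no library block, where the value was -0.46.

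Ordered by mean, Ddt had 415 ± 206 normalised CPM in plasma-lineage cells (SD, n = 6), 293 ± 77.4 in recycling-like, 153 ± 42.2 in CC-like, 103 ± 19.7 in CB-like, 98.2 ± 21.2 in naive or memory B-like and 77.4 ± 19.8 in S-phase GC B-like cells. The ranges of every pair of neighbours in this order overlapped. In T cell-like cells, from 74 UMIs in all, Ddt had 45.8 ± 20.9. In the unnamed cluster led by haemoglobin genes, outside the classes compared, it had 63.3 ± 17.9. The annotated readthrough transcript Gm20441 shares 30.01% of the exonic bases of Ddt and 13.6% of those of Gstt3, on the same strand, so reads there could be of either gene. It had 0 UMIs in every library.

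Mif was high in the same GC states as Ddt but peaked in recycling-like cells rather than in plasma-lineage cells. Its levels were 457 to 591 normalised CPM in CB-like cells (median 482) and 1210 to 1527 in recycling-like cells (median 1430), and they did not overlap. CC-like cells lay between these classes, at 672 to 938, and were above the CB-like cells in 6 of 6 libraries. The log2 fold change was 1.52 in recycling-like cells (SE 0.04, adjusted p = 2.75e-24) and 0.64 in CC-like cells (SE 0.05, adjusted p = 5.66e-11). Mif fell by 0.56 in naive or memory B-like cells (SE 0.14, adjusted p = 0.00589) and was lower there in 6 of 6 libraries.

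In plasma-lineage cells Mif had 553 to 1121 normalised CPM, all below the recycling-like range. The log2 fold change against CB-like cells was 0.72 (SE 0.16, adjusted p = 0.00346), with 5 of 6 libraries higher, and 0.89 in PB-like cells alone. Without a scaling factor for library composition this difference was -0.055, and the median over all genes moved by -0.87 on that scale. The TMM factors of the plasma-lineage sums ran from 0.217 to 0.924, against 1.07 to 1.24 in CB-like cells. In S-phase GC B-like cells Mif fell by 0.36 (SE 0.04, adjusted p = 6.6e-12), but the sign turned with the clustering, to 0.28 without integration and 0.24 at a resolution of 1, and with no library block it was not called. The genome holds processed pseudogenes of Mif, none of them among the features, so reads that match both are uncertain.

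The genes listed for the receptors and partners of MIF moved in both directions. Of the 6 listed, 4 passed the low-count filter. Cxcr4, the chemokine receptor, fell by 0.78 in recycling-like cells and had -2.33 in CC-like cells, where 4 of the 6 sums reached the minimum CPM, but it is a marker of CB and was used in naming the classes. Cd74, the receptor subunit that also chaperones MHC class II, rose by 0.58 in CC-like and 0.997 in naive or memory B-like cells and fell by 0.68 in recycling-like and 0.70 in plasma-lineage cells. Cd44, the co-receptor, fell by 0.53 in recycling-like cells and rose by 1.33 in plasma-lineage cells. Cops5, a COP9 signalosome subunit that binds MIF, rose by 0.50 in recycling-like cells and fell by 0.76 in naive or memory B-like cells. The median of the tested genes of the list was -0.61 in recycling-like cells, against -0.01 over all genes.

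Among the theta class transferases, Gstt2 was the best measured in these cells, with 3734 UMIs in CB-like cells, and Gstt1 and Gstt3 gave few. Gstt2 had 55.2 to 134 normalised CPM in CB-like cells (median 70.6), 109 to 195 in CC-like cells (median 137) and 139 to 248 in recycling-like cells (median 199). The highest CB-like value was that of Smc3 wt/- replicate 2, and without it the CB-like range ended at 75.1, below every CC-like library. Gstt2 rose by 1.06 on the log2 scale in CC-like cells (SE 0.10, adjusted p = 2.08e-09) and by 1.60 in recycling-like cells (SE 0.08, adjusted p = 1.3e-17), in 6 of 6 libraries each.

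In PB-like cells Gstt2 ran from 84.2 to 316, and the lowest value was again that of Smc3 wt/- replicate 2. The plasma-lineage difference was 1.49 (SE 0.35, adjusted p = 0.00474), in 5 of 6 libraries, and 1.91 without that library. Without a scaling factor for library composition it was 0.81 and did not pass. Gstt2 was the only one of the 7 genes called higher in naive or memory B-like cells, at 0.67 (SE 0.20, adjusted p = 0.0123), a call that was lost without Smc3 wt/wt replicate 3 (0.50) or without Smc3 wt/- replicate 1 (0.55). It fell by 0.34 in S-phase GC B-like cells (SE 0.06, adjusted p = 1.89e-06). That call was lost without integration (0.026), at a resolution of 1 (-0.011), with no library block (-0.38) and with the replicate block and genotype in place of the library (-0.38, adjusted p = 0.11).

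Gstt1 had 1.71 to 6.61 normalised CPM in CB-like cells, 3.98 to 21.7 in recycling-like cells and 2.997 to 39.3 in PB-like cells. It was higher than in CB-like cells in 6 of 6 libraries in CC-like, recycling-like and plasma-lineage cells, although the ranges overlapped. The fitted log2 fold change was 1.71 in CC-like (SE 0.22), 2.13 in recycling-like (SE 0.17) and 2.49 in plasma-lineage cells (SE 0.26). These are given without a test, since the minimum CPM was reached in 1, 5 and 1 of the 6 CB-like sums of the comparison. The plasma-lineage sums held only 4 to 113 UMIs of Gstt1, and the gene passed the filter there only with Smc3 wt/- replicate 2, which gave the 113. Its difference in S-phase GC B-like cells was -0.26 (SE 0.23).

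Gstt3 was at 3.15 to 5.90 normalised CPM in CB-like cells and rose by 1.12 on the log2 scale in recycling-like cells (SE 0.18, adjusted p = 2.59e-06). Its other differences are given without a test. In plasma-lineage cells, where 1 of the 6 CB-like sums reached the minimum CPM, it had 1.09 (SE 0.25), and 0.32 without a scaling factor. In CC-like cells it had 0.66 (SE 0.26), and in S-phase GC B-like cells, where 2 libraries had 0 UMIs, -1.23 (SE 0.24), which was -0.57 without integration and -0.49 at a resolution of 1. Gstt1 and Gstt3 were too low for a test in naive or memory B-like cells.

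Of 22 glutathione transferase genes listed outside the locus, 5 to 8 were tested in each comparison. In recycling-like cells 4 rose and 1 fell, with Gsto1, an omega class enzyme, at 2.51, Gstp3, of the pi class, at 0.88, and Mgst3, a membrane-bound enzyme, at -0.63. In plasma-lineage cells 1 rose and none fell (Gstp1 at 1.31), and Gsto1 (2.96) and Mgst2 (2.64) reached the minimum CPM in 5 and 1 of the 6 CB-like sums and are given without a test. In CC-like cells 1 rose (Gsto1 at 0.71), and in S-phase GC B-like cells 1 rose and 1 fell (Gstp1 at 0.21 and Gsto1 at -0.99). In naive or memory B-like cells none rose and 1 fell (Gstp1 at -0.40). Gstcd, at -1.09, is not counted, since 2 of the 6 sums of those cells reached the minimum CPM. There Mgst1 had 65 UMIs, against 6 over the CB-like sums with 0 in 4 of them, and Mgst1, Mgst2 and Gsto1 passed the filter through the naive or memory B-like sums, so no change is counted for them. The list's median was 0.32 in recycling-like cells, against -0.01 over all genes tested.

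Derl3 set plasma-lineage cells apart from every GC state. It had 18.2 to 25.5 normalised CPM in CB-like cells (median 20.8) and 198 to 744 in plasma-lineage cells (median 323), and the ratio of the means was 18.5. The log2 fold change was 4.07 (SE 0.25, adjusted p = 4.82e-07), higher in 6 of 6 libraries, and 3.99 both without Smc3 wt/- replicate 2 and in PB-like cells alone. The transcript was not confined to PC-like cells, since PB-like cells had 176 to 734. Among the other classes CC-like cells had the most, at 40.8 to 46.1, with an SD of 1.85 about a mean of 43.4.

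Derl3 was higher in CC-like than in CB-like cells in every library, by 1.08 on the log2 scale (SE 0.10, adjusted p = 6.2e-10). Recycling-like cells, at 23.2 to 44.4, were 0.71 higher than CB-like cells (SE 0.09, adjusted p = 5.6e-08). The means of CC-like (43.4) and recycling-like cells (30.7) had overlapping ranges. Derl3 fell by 0.92 in S-phase GC B-like cells (SE 0.12, adjusted p = 6.86e-10) and by 0.80 in naive or memory B-like cells (SE 0.20, adjusted p = 0.00558), in 6 of 6 libraries each. The first was -0.48 without integration and -0.58 at a resolution of 1, both called, and the second was -0.45 without integration and did not pass. T cell-like cells, which should have little of it, held 6 UMIs in all and 0 in 3 libraries.

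Most other ERAD genes rose with Derl3 in plasma-lineage cells, and in the GC states they were called in both directions. Of 20 listed, 18 rose and none fell in plasma-lineage cells, not counting Edem3 (1.97), which reached the minimum CPM in none of the CB-like sums. The median of the 20 was 1.89, against -0.10 over all genes. The largest changes were those of Edem2 (4.06) and Edem1 (3.73), which hand misfolded glycoproteins on for disposal, Sdf2l1 (3.58), a cofactor of ER chaperones, and Hspa5 (3.29), the chaperone BiP. Edem1 is also among the markers that named these cells. Syvn1, the ubiquitin ligase of the pathway, had a value of 0.33 and an adjusted p of 0.108. In CC-like cells, where Derl3 had 2.03 times its CB-like mean, 5 of 19 rose and 3 fell, with Hspa5 at 0.99, Herpud1 at 0.54, Ube2j1 at -0.53 and Syvn1 at -0.41, and the median was -0.04. In recycling-like cells 5 of 20 rose and 7 fell, with Sdf2l1 at 1.02 and Hspa5 at 0.90. In S-phase GC B-like cells 4 rose and 4 fell, and in naive or memory B-like cells 5 rose and 5 fell of 19.

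Smarcb1 was not counted as higher in any class, unlike Ddt, Mif, Gstt2, Gstt3 and Derl3. It had 121 to 137 normalised CPM in CB-like cells, 117 to 138 in recycling-like cells and 73.0 to 133 in CC-like cells. The differences were 0.06 in recycling-like (SE 0.04, adjusted p = 0.262, 95% interval -0.03 to 0.15) and -0.09 in CC-like cells (SE 0.07, adjusted p = 0.331, interval -0.25 to 0.06). At a clustering resolution of 1 they were -0.15 and -0.22, and both then passed as lower. Smarcb1 fell by 0.92 in plasma-lineage cells (SE 0.14, adjusted p = 0.000346), by 0.60 in naive or memory B-like cells (SE 0.09, adjusted p = 0.000151) and by 0.23 in S-phase GC B-like cells (SE 0.04, adjusted p = 7.36e-06). Each of these was lower in 6 of 6 libraries, and the S-phase call was lost with no library block (-0.28). PB-like cells had 48.8 to 89.0, below every CB-like library.

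Of 21 other subunits of the SWI/SNF complexes tested, 10 were lower and 2 higher in plasma-lineage cells, where 28.7% of all genes were called lower and 23.7% higher. Their median was -0.46, against -0.10 over all genes. Smarcd2 was at -1.17 there. Bcl7a (-2.53), Bicra (-1.66) and Arid1b (-1.34) are not counted, since they reached the minimum CPM in 5, 2 and 4 of the 6 plasma-lineage sums. In naive or memory B-like cells 1 rose and 10 fell, with Smarca4, an ATPase of the complex, at -2.05 and Smarca2, the alternative ATPase, at 1.27. In recycling-like cells, where Smarcb1 was close to its CB-like level, 4 rose and 13 fell (Bicra and Arid1b at -1.02 each). In CC-like cells none rose and 11 fell, with Smarca4 at -1.53, and in S-phase GC B-like cells 1 rose and 10 fell, with Smarca4 at -0.83.

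**Figure D2:**
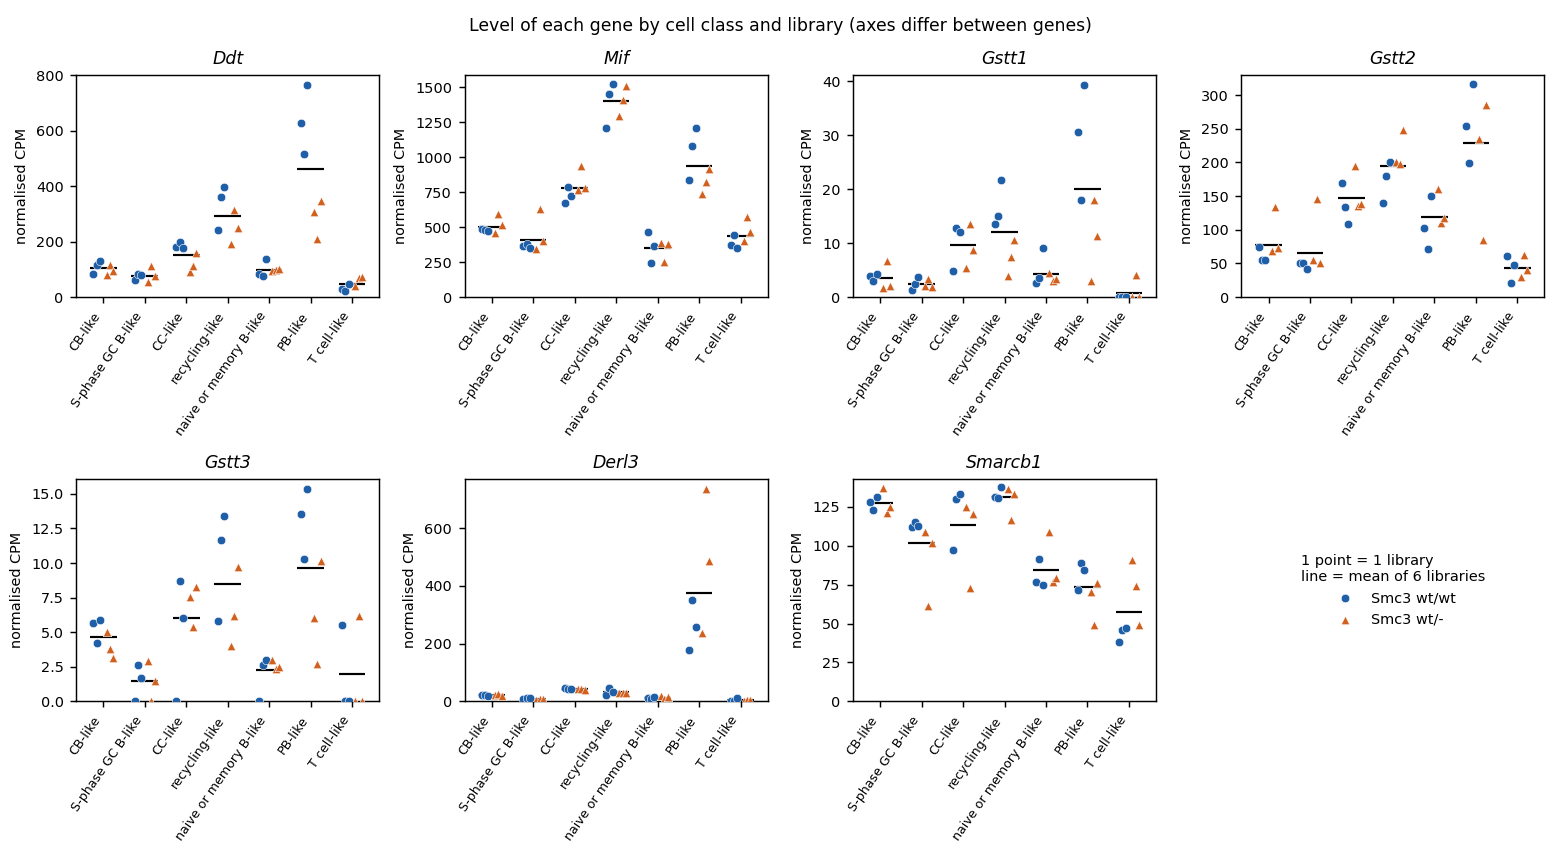
Level of each gene in normalised CPM (y axis, scaled separately for each gene) by cell class (x axis), with 1 point per library (circles Smc3 wt/wt, triangles Smc3 wt/-) and a line at the mean of the 6 libraries. Mif peaked in recycling-like cells at 1210 to 1527, Derl3, among the classes drawn, in PB-like cells at 176 to 734, and Smarcb1 was lowest in T cell-like and PB-like cells.

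**Figure D3:**
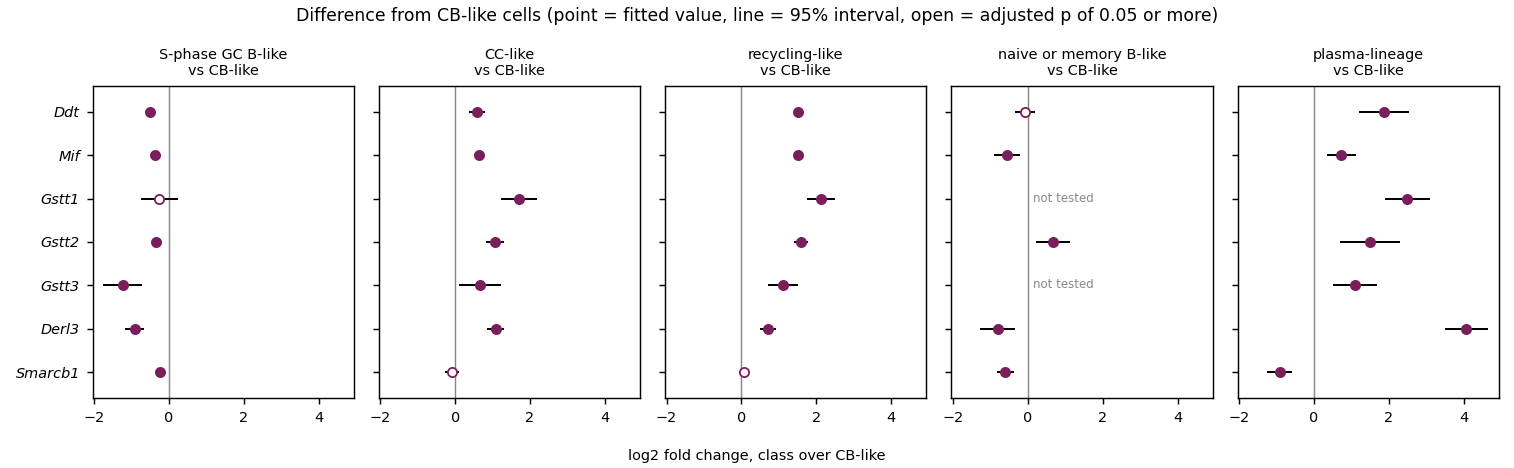
Log2 fold change of each gene in 5 classes over CB-like cells (x axis), as the fitted value with its 95% interval; open circles did not pass an adjusted p of 0.05, and the circles of Gstt1, and of Gstt3 outside recycling-like cells, are fitted values that are not counted as changes. Derl3 in plasma-lineage cells, at 4.07, lies farthest from 0, and Smarcb1 is open in CC-like and recycling-like cells.

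The neighbours of the 7 genes moved in both directions. Of 18 other genes counted within 250 kb, 4 or 5 were tested per comparison. Vpreb3, a partner of the immature B-cell receptor, lies on the Smarcb1 side of the locus and fell in every comparison, by 1.08 in recycling-like and by 1.17 in plasma-lineage cells. Snrpd3, a splicing factor subunit, rose by 0.78 in recycling-like cells and had a value of 0.10 in plasma-lineage cells. Chchd10, a mitochondrial protein gene, fell by 0.52 in CC-like cells and rose by 0.25 in recycling-like cells, and Cabin1 rose by 0.39 in CC-like cells and fell by 0.63 in plasma-lineage cells. Zfp280b was called in S-phase GC B-like (0.52) and recycling-like cells (0.70). Altogether 4 neighbours rose and 1 fell in recycling-like cells, and none rose and 2 fell in plasma-lineage cells. Gstt4, a further theta class gene of the locus, had 43 UMIs over all libraries and was too low to be tested.

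Across the 51 sums of a class in a library, the genes whose log2 levels were most like those of a gene of the locus were as follows. For Ddt they were Psma5, a proteasome subunit (Pearson r = 0.906), Pdap1 (0.867) and Atp5g1, of the ATP synthase (0.845). For Mif they were Eprs, a tRNA synthetase (0.909), Nme1, a nucleoside diphosphate kinase, and Nolc1, a nucleolar protein (0.895 each). For Derl3 they were Hdlbp (0.902), Pdia6, an ER disulfide isomerase (0.890), and Sdf2l1 (0.888). For Smarcb1 they were Hmgn1 (0.858), Ube2k and Yeats4 (0.853 each). For Gstt2 the first was Ddt itself (0.815), followed by Timd2 (0.786) and Nme1 (0.779). Ddt also had an r of 0.796 with Gstt1 and 0.782 with Mif. Sums of 1 library share cells, depth and library composition, so these values describe the order of the classes and libraries only.

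Between the labelled genotypes, Ddt was lower in Smc3 wt/- libraries, without overlap of the groups, in CC-like and plasma-lineage cells and in PB-like cells alone. Of all genes tested, 4.42%, 4.87% and 5.48% were lower without overlap in these classes, so nothing is read from the separation itself. In PB-like cells it had 627, 516 and 766 normalised CPM in Smc3 wt/wt replicates 1 to 3 and 307, 209 and 348 in Smc3 wt/- replicates 1 to 3. The groups did not overlap. The means were 636 ± 125 and 288 ± 71.7 (SD, n = 3 each), a ratio of 0.452, or 0.515 without Smc3 wt/- replicate 2. Immunoglobulin transcripts made up 41.5% of the UMIs of the PB-like cells of that library and 11.5% to 16.0% in the others.

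In plasma-lineage cells the values were 568, 481 and 695 against 295, 124 and 327, and the groups again did not overlap. The lowest is that of Smc3 wt/- replicate 2, whose plasma-lineage cells are mostly PC-like, with 90.9 in those cells. The other PC-like sum, of Smc3 wt/wt replicate 3, had 38.9 from 5 UMIs in 24 cells, so in PC-like cells the Smc3 wt/- library had the higher value. The fitted log2 difference, Smc3 wt/- over Smc3 wt/wt, was -1.23 (SE 0.37), and -0.90 without that library. In PB-like cells alone it was -1.15, and -0.96 without it. The values come from few cells: 1 cell held 28.6% of the Ddt UMIs of Smc3 wt/wt replicate 1 in PB-like cells, and 4.81% to 13.0% in the other libraries.

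In CC-like cells Ddt had 180, 197 and 179 normalised CPM in Smc3 wt/wt and 91.4, 111 and 158 in Smc3 wt/- libraries, without overlap. The difference was -0.60 (SE 0.22), and -0.54 without Smc3 wt/- replicate 2. In recycling-like cells the values were 243, 359 and 396 against 192, 315 and 251, which overlapped, with a difference of -0.42 (SE 0.23), and -0.60 without that library. In CB-like cells they were 83.8, 115 and 128 against 80.8, 117 and 93.8, with a difference of -0.19 (SE 0.20), and -0.34 (SE 0.18) without Smc3 wt/- replicate 2. S-phase GC B-like cells had -0.08 (SE 0.21), and -0.23 (SE 0.17) without it. Naive or memory B-like cells had -0.03 (SE 0.23), and 0.30 without Smc3 wt/wt replicate 3. In T cell-like cells, from 17 and 57 UMIs, the means lay the other way, at 31.6 ± 14.0 in Smc3 wt/wt and 60.0 ± 17.2 in Smc3 wt/-.

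Sex was unevenly spread over the genotypes. The ratio of Ddt in PB-like cells, Smc3 wt/- over Smc3 wt/wt, was 0.365 among the male libraries (2 Smc3 wt/wt and 1 Smc3 wt/-) and 0.428 among the female ones (1 Smc3 wt/wt and 2 Smc3 wt/-). In CC-like cells it was 0.588 and 0.698. In recycling-like cells it was 1.05 among the male and 0.559 among the female libraries, and in CB-like cells 1.18 and 0.680, so there the direction differed between the sexes. With sex in the fit the log2 difference was -1.62 in plasma-lineage, -0.62 in CC-like and -0.41 in recycling-like cells. Each sex has 1 library of 1 genotype.

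Gstt1 in recycling-like cells had 13.6, 15.1 and 21.7 normalised CPM in Smc3 wt/wt and 3.98, 7.45 and 10.5 in Smc3 wt/- libraries, without overlap, from 213 and 69 UMIs. The difference was -1.18 (SE 0.34). In plasma-lineage cells Gstt1 had a difference of -1.003 (SE 0.48), from 67 UMIs in the Smc3 wt/wt libraries, and in CB-like cells -0.60 (SE 0.45). Without Smc3 wt/- replicate 2 these were -1.75 and -0.91. Gstt2 went the other way in 5 of 6 classes, at 0.54 in CB-like (SE 0.27), 0.31 in recycling-like (SE 0.18) and -0.34 in plasma-lineage cells. Without Smc3 wt/- replicate 2 these were 0.22, 0.36 and 0.049. In S-phase GC B-like cells, where same-numbered libraries deviated together, Gstt2 had 50.9, 50.6 and 41.9 normalised CPM in Smc3 wt/wt replicates 1 to 3. It had 55.5, 145.7 and 50.4 in Smc3 wt/- replicates 1 to 3, and the groups overlapped. The difference was 0.46 (SE 0.29), 0.57 (SE 0.22) with the replicate number as a block, and 0.16 without Smc3 wt/- replicate 2. Its CB-like mean was 61.9 in Smc3 wt/wt and 91.8 in Smc3 wt/-, where Smc3 wt/- replicate 2 alone had 134. Gstt3 had -0.67 in recycling-like (SE 0.37), -0.38 in CB-like (SE 0.29) and 0.21 in CC-like cells (SE 0.47).

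Mif had 479 ± 6.25 normalised CPM in the CB-like cells of Smc3 wt/wt and 521 ± 67.6 in those of Smc3 wt/- libraries, and 1396 ± 166 and 1404 ± 109 in recycling-like cells. Its differences over the 6 classes ran from -0.45 in plasma-lineage to 0.29 in S-phase GC B-like cells, which were -0.30 and 0.016 without Smc3 wt/- replicate 2. Derl3 in plasma-lineage cells had a difference of 0.86 (SE 0.42), and 0.47 without Smc3 wt/- replicate 2, and in PB-like cells 176, 352 and 258 against 235, 734 and 486, which overlapped. In S-phase GC B-like cells it had 7.46, 12.9 and 13.1 normalised CPM in Smc3 wt/wt replicates 1 to 3. In Smc3 wt/- replicates 1 to 3 it had 4.53, 6.77 and 9.29, from 58 UMIs, and the groups overlapped. The difference was -0.72 (SE 0.29), and -0.58 (SE 0.30) with the replicate number as a block. It was -0.24 without integration, -0.12 at a resolution of 1 and -1.36 without Smc3 wt/- replicate 3. Smarcb1 lay between -0.39 and 0.09, and in S-phase GC B-like cells its groups did not overlap, at 112, 116 and 113 against 109, 61.0 and 102. The difference there was -0.22, and -0.11 without Smc3 wt/- replicate 2.

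**Figure D4:**
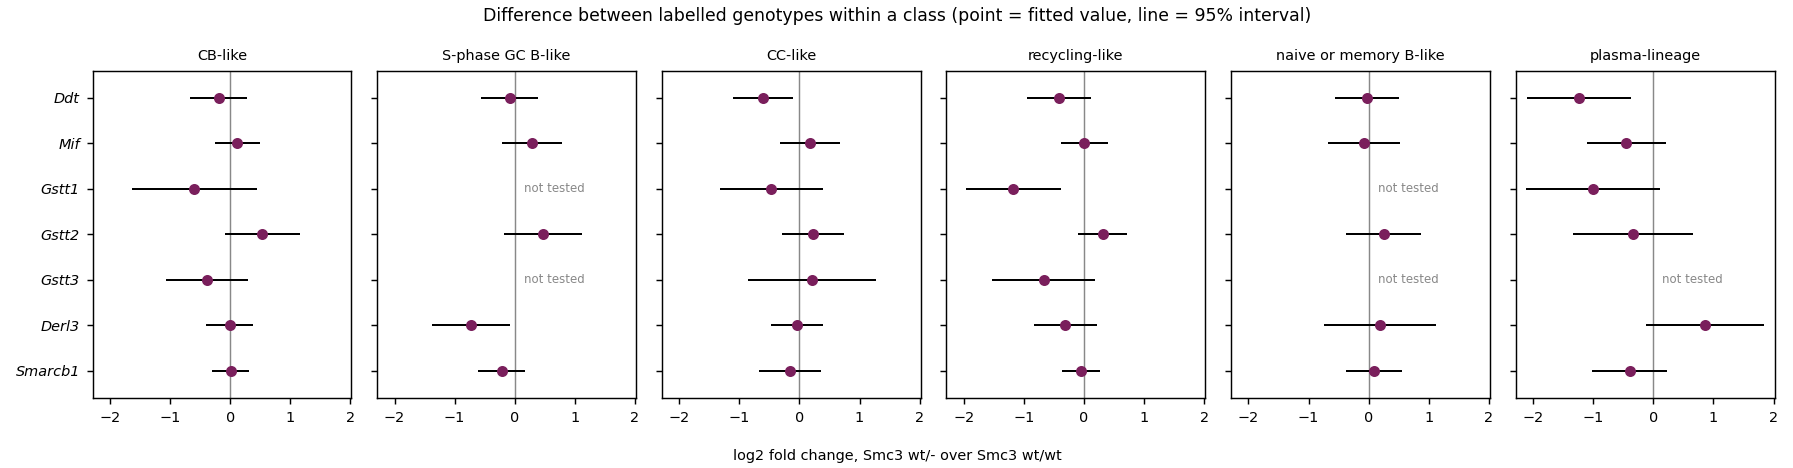
Log2 difference of each gene between the labelled genotypes, Smc3 wt/- over Smc3 wt/wt (x axis), within 6 cell classes, as the fitted value with its 95% interval. The fitted values lie between -1.23 (Ddt) and 0.86 (Derl3), both in plasma-lineage cells.

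Over all genes, edgeR called 0% between the genotypes in each of the 6 classes, with 127 to 244 genes at an unadjusted p under 0.05 and 0 to 3 called by DESeq2. The genotype groups of 1 of the 7 genes did not overlap in S-phase GC B-like (Smarcb1), CC-like (Ddt) and recycling-like cells (Gstt1), and of none in CB-like and naive or memory B-like cells. All of these were lower in Smc3 wt/- libraries, and the share of all tested genes with non-overlapping groups in that direction was 4.68%, 4.42% and 4.37% in the first 3 of these classes and 4.33% and 3.53% in the last ones. Nothing is read from 1 of 7. In plasma-lineage cells, where it was 4.87%, this held for Ddt and, below the filter, for Gstt3. In PB-like cells alone, at 5.48%, it held for Ddt, for Gstt1, whose groups were separated by less than their printed digits at 18.0, and, below the filter, for Gstt3. Among the neighbours in plasma-lineage cells, Snrpd3 (-0.34, SE 0.23) and Cabin1 (-0.13, SE 0.41) were negative like Ddt, and Chchd10 (0.87, SE 0.58), Vpreb3 (1.30, SE 0.59) and Zfp280b (1.03, SE 0.70) were positive.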

How the data were processed

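The deposited values were counts, whole numbers of UMIs per feature and cell barcode. According to the study's methods, the authors made 10x Genomics 3′ libraries and 1 count matrix per library with Cell Ranger. The single cell methods name no genome build. They also list R 4.0.2 and Seurat 4.0.0. Nothing in the counts had been normalized. The wild-type libraries that the study also integrated were not analysed here.

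Barcodes with at least 500 genes and at most 10% mitochondrial UMIs passed (21568 of 22939), and the highest Scrublet scores of each library (scanpy 1.11.5) were removed as doublets (721, or 3.34%). Cells were clustered in Seurat 5.3.0 with reciprocal PCA, 30 components and a resolution of 0.5, on 1871 variable genes after leaving out the 7 genes, their neighbours, the listed genes, and genes of immunoglobulins, mitochondria and ribosomal proteins. A class name needed at least 3 detected markers and rested on the 10 genes with the highest fold, and the rule from markers to names was set once the clusters were known. These names are rebuilt, so values by class can differ from the study's for that reason.

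UMIs were summed per library and class where there were at least 20 cells. Sums were tested with edgeR 4.0.16 (filterByExpr, TMM, quasi-likelihood test, Benjamini-Hochberg at 0.05), with the library as a block between classes and no covariate between genotypes. DESeq2 1.42.0 and other settings were alternatives, and the script was tested on simulated data. Lists were described by counts and medians only. The 7 genes, the gene lists, markers and tests were chosen with earlier results of these data known. Named beside them were neighbours with at least 20 UMIs in every library, the 3 genes most alike in log2(CPM + 1) for genes of at least 10 CPM, and up to 4 called genes per list and comparison. Same-numbered libraries of the genotypes deviated together in CB-like (correlations of 0.290, 0.163 and 0.188), naive or memory B-like and S-phase GC B-like cells. The correlations were not all above 0.1 in CC-like, recycling-like and plasma-lineage cells.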

Additional observations from a re-analysis of the deposited data

How the results depend on the processing

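Sums of few cells limit the plasma-lineage and T cell-like values, and Gstt1 and Gstt3 rest on few UMIs. Over the alternatives, state differences of the 7 genes stayed on the same side of the threshold in 468 cases, lost the call in 20, gained it in 1 and, with a call under at least 1 of the settings, turned in direction in 5. This tally includes the fits of Gstt1 and Gstt3 that are not counted as changes above. Of the 20, Gstt3 gave 7 in CC-like and 1 in plasma-lineage cells. The 5 that turned were, in S-phase GC B-like cells, Gstt2 (0.026) and Mif (0.28) without integration and Mif (0.24) at a resolution of 1, in recycling-like cells Smarcb1 (-0.15) at a resolution of 1, and in plasma-lineage cells Mif (-0.055) with no scaling factor. Of the 468, 7 changed sign with no call under either setting. These were Gstt1 in S-phase GC B-like cells (0.27 without integration, 0.30 at a resolution of 1), Ddt in naive or memory B-like cells (0.013 with DESeq2, 0.088 with RLE size factors, 0.029 without Smc3 wt/wt replicate 2) and Smarcb1 in recycling-like cells (-0.037 with no scaling factor, -0.0072 with immunoglobulin genes left out). The setting with no scaling factor, chosen after seeing the data, cut the share of higher calls in plasma-lineage cells from 45.2% to 9.82%. It left Ddt at 1.15, Derl3 at 3.23, Gstt2 at 0.81 and Mif at -0.055, of which the last 2 were not called. Gstt3, which is given without a test in these cells, was at 0.32. RLE size factors in edgeR moved the median of all genes by 0.16 in naive or memory B-like cells and the share of higher calls from 43.9% to 56.9%. In recycling-like cells a resolution of 1 moved that median by -0.14 and the share from 50.2% to 39.8%.

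The number of genes called between S-phase GC B-like and CB-like cells (4202) was 1343 with no library block and 2241 with the replicate block and the genotype in place of the library, and that between CC-like and CB-like cells (3946) was 2290 with no library block. Between genotypes, where edgeR called none, DESeq2 called 3 genes in CB-like cells (Ifi27, Tmem121 and Ddah2) and 1 in S-phase GC B-like cells (Ifi27), clustering without integration gave 1 in each (Tmem121 and Iglc2), and the absence of a low-count filter gave 28 in S-phase GC B-like, 43 in CC-like, 35 in naive or memory B-like and 13 in plasma-lineage cells. Leaving out single libraries gave 0 to 1, with Ighg2c called in plasma-lineage cells, and in PB-like cells alone (1 gene), without Smc3 wt/- replicate 2. With the replicate number as a block, no gene was called between genotypes in any class, and Ddt in plasma-lineage cells was at -1.33. The causes of these changes were not tested.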
